A study of Anopheles gambiae with 9 samples.

Results

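In the *Anopheles gambiae* ear, 44 genes had one main isoform in females and another in males. A gene was taken as a member when it had at least 2 annotated transcripts and at least 50 summed counts in each of the 9 libraries, when 1 transcript held the largest share of the gene's counts in all 3 dsxF+/+ XX libraries, and when a different transcript held it in all 3 dsxF+/+ XY libraries. Of 13845 genes in the deposited table, 1478 had 2 or more transcripts and 1281 of these could be scored, so the members were 3.43% of the genes that could be scored. The rule left out 6 genes by name, 2 of which met it otherwise. The transcript that was largest in dsxF+/+ XX is here called the female isoform and the one that was largest in dsxF+/+ XY the male isoform. At the other extreme, 888 of the 1281 genes kept the same main isoform in all 6 control libraries. The members had 116 transcripts among them: 27 had 2 transcripts, 11 had 3, and 6 had more.

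RNA was sequenced from pedicels, the antennal segment that houses the Johnston's organ (JO), in 3 groups of 3 libraries. Control females (dsxF+/+ XX) and control males (dsxF+/+ XY) were of the G3 strain. The third group, dsxF-/- XX, comprised genetic females homozygous for a mutation that disrupts the female-specific isoform of *doublesex*, and showed an intersex phenotype. All were virgin adults kept in light and dark cycles and sampled as the light began to fall, and each library pooled pedicels of many animals. The mutants came from a strain of their own and, unlike the controls, were not separated by sex as pupae, so strain background and rearing cannot be told apart from the mutation. Library totals were 15912671 to 17188581 counts for control females, 14177255 to 17477058 for dsxF-/- XX and 14708863 to 18379886 for control males. In dsxF+/+ XX replicate 3 the 10 most abundant transcripts took 23.6% of counts, against 8.95% to 14.2% in the other 8 libraries. A pedicel holds neurons, supporting cells and other tissue, so a shift in isoform share within cells cannot be told apart from a change in the numbers of cells that use each isoform.

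Alternative isoforms arise when one gene is transcribed from different start sites, spliced in different ways or ended at different sites, and they can change the protein, its amount or where it is made. In the sex determination cascade of insects, *doublesex* is itself spliced in a sex-specific way. Its female and male proteins are transcription factors sharing a DNA-binding domain. A gene can therefore differ between the sexes in which isoform it makes without differing in how much RNA it makes.

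The difference between the control groups, which chose the members, ranged from 10.04 to 69.96 percentage points in the mean share of the female isoform, with a median of 31.2 points. Over the 44 members the median share of the female isoform was 64.4% in the dsxF+/+ XX libraries, 40.7% in the dsxF-/- XX libraries and 29.2% in the dsxF+/+ XY libraries. The male isoform ran the other way, with medians of 33.4%, 53.0% and 65.4%. Not every member followed the medians. In AGAP003509, which had 7 transcripts, the mean share of the male isoform was 27.5%, 25.2% and 26.7% in the same order. Its female isoform went from 39.8% to 34.5% and 23.1%, and the smallest lead in a control library was 0.38 points. These are shares of estimated counts and not of molecules, since longer transcripts yield more counts. In 20 members the main isoform led the other by more than 10 points in every control library. The narrowest lead was in AGAP005617, where the isoforms were 0.0017 points apart in dsxF+/+ XX replicate 2. With that library left out 80 genes met the rule, against 52 to 59 without any other 1 control library.

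**Figure D1:**
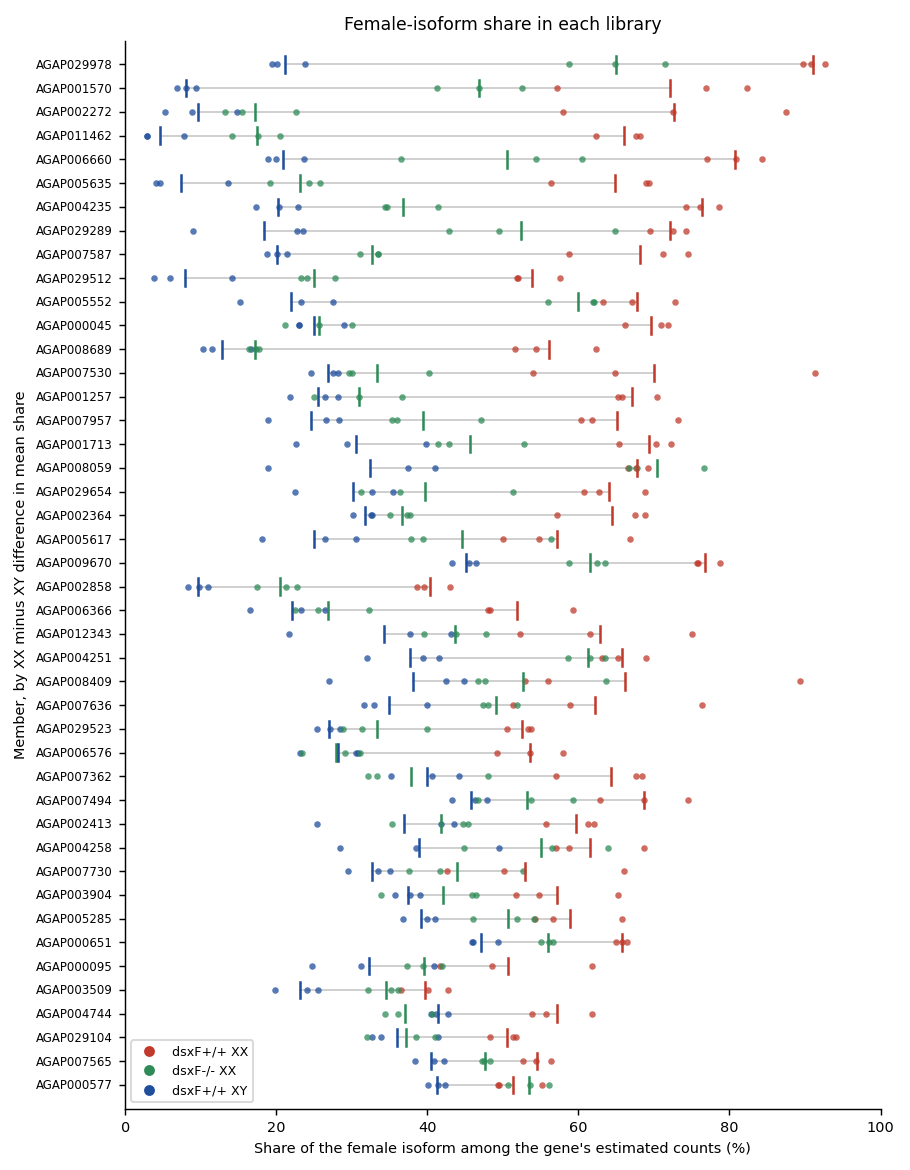
Share of the female isoform among all estimated counts of its gene (x axis, percent) for the 44 members (y axis), ordered by the dsxF+/+ XX minus dsxF+/+ XY difference. Points are single libraries, 3 per group, and vertical ticks are group means. The control groups stand apart because the rule required it, while the dsxF-/- XX points lie mostly between them, near dsxF+/+ XY for AGAP000045 and near dsxF+/+ XX for AGAP008059.

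The dsxF-/- XX libraries had no part in the choice beyond the count minimum, and they were read next for their main isoform. The male isoform was the largest in all 3 dsxF-/- XX libraries for 22 members and the female isoform for 9. Of the other 13, the male isoform led in 2 of 3 libraries for 8 and the female isoform in 2 of 3 for 4. The last was AGAP006366, in which RA, the main isoform of neither control, led in 2 libraries and the male isoform in 1. No member had one and the same other isoform on top in every dsxF-/- XX library. The count of 22 rose to 44 without dsxF+/+ XX replicate 2, and the count of 9 to 16 and 17 without dsxF+/+ XY replicates 1 and 3, because more genes then met the rule.

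To place each dsxF-/- XX mean between the controls, the mean share of the female isoform was scaled so that dsxF+/+ XX is 0 and dsxF+/+ XY is 1. The 44 positions ran from -0.21 to 1.28 with a median of 0.64, and 28 lay above 0.5. Members with the male isoform in 3 of 3 dsxF-/- XX libraries had a median position of 0.79 and those with the female isoform in 3 of 3 one of 0.32. In 35 members the 3 dsxF-/- XX shares did not overlap the 3 dsxF+/+ XX shares, whereas the same held for 26.3% of all 1281 genes. They did not overlap the dsxF+/+ XY shares in 28 members, against 21.5% of all genes. In 21 members they lay wholly between the controls, against 5.70% of all genes. The members were chosen for controls that stand apart, which favours each of these counts. Positions below 0 were found in AGAP008059 and AGAP000577 and positions above 1 in AGAP006576, AGAP007362 and AGAP004744.

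**Figure D2:**
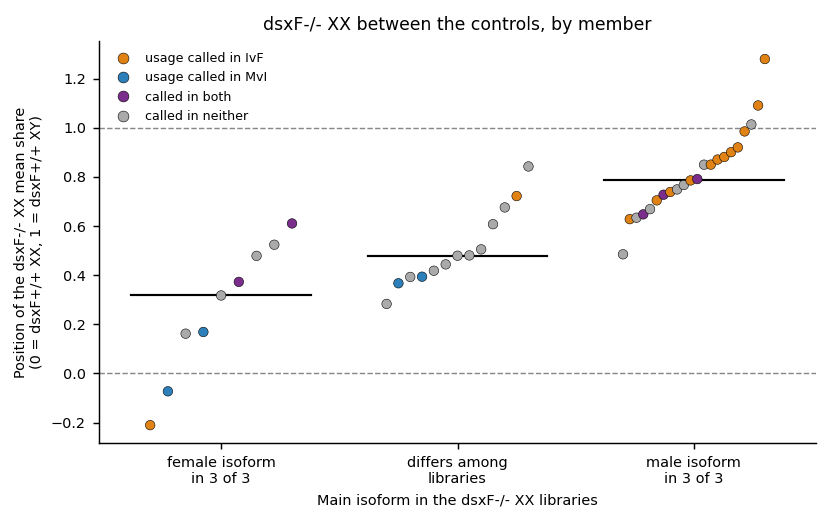
Position of the dsxF-/- XX mean share of the female isoform between the control means (y axis, no unit, 0 for dsxF+/+ XX and 1 for dsxF+/+ XY), for members grouped by their main isoform in the 3 dsxF-/- XX libraries. Each point is a member, lines are group medians (0.32, 0.48 and 0.79), and colours give the comparisons in which transcript usage passed the test.

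Transcript usage was tested in 2 comparisons, dsxF-/- XX minus dsxF+/+ XX (IvF) and dsxF+/+ XY minus dsxF-/- XX (MvI), with edgeR's gene-level test of whether the shares of a gene's transcripts changed (adjusted p under 0.05 over all 1313 genes tested). No test is given for dsxF+/+ XY against dsxF+/+ XX, since that contrast chose the members. Usage changed in 19 of the 44 members in IvF, against 7.31% of all genes tested, and in 9 in MvI, against 4.87%. Of these, 5 changed in both comparisons (AGAP029978, AGAP011462, AGAP005635, AGAP001713 and AGAP002858), 14 in IvF only, 4 in MvI only, and 21 passed in neither. Each comparison holds 1 of the control groups that chose the members, which favours a difference, and both share the dsxF-/- XX libraries. The count of 19 fell to 12 without dsxF+/+ XX replicate 3 and to 11 without dsxF-/- XX replicate 3. The count of 9 fell to 4 without dsxF-/- XX replicate 2 or 3 or dsxF+/+ XY replicate 3, and to 5 without dsxF+/+ XY replicate 2. Among the 22 members with the male isoform in 3 of 3 dsxF-/- XX libraries, 12 changed in IvF only, 3 in both and 7 in neither. Among the 9 with the female isoform in 3 of 3, 1 changed in IvF only, 2 in MvI only and 2 in both.

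The study's tables gave a name or Gene Ontology (GO) terms for 14 members. Those tables were built on these same libraries, largely from transcripts higher in control males. Having an annotation therefore itself favours a higher male isoform. Of these, 5 carry a term of the axoneme, the microtubule core of a cilium, or of the cytoskeleton. The male isoform led in every dsxF-/- XX library for 3 of the 5, and usage changed in IvF for 3 and in MvI for 2. Among the 30 members without annotation, the male isoform led in every dsxF-/- XX library for 12. Usage changed in IvF for 10 of those 30 and in MvI for 5. AGAP008689 encodes an axonemal dynein intermediate chain, a subunit through which the outer dynein arm docks and assembles so that a cilium can beat. Its female isoform, RA, made up 62.3%, 51.6% and 54.4% of the gene's counts in control females, 17.3%, 16.4% and 17.7% in dsxF-/- XX, and 10.3%, 16.7% and 11.5% in control males. The dsxF-/- XX libraries thus lay far below every dsxF+/+ XX library and overlapped dsxF+/+ XY. Usage changed in IvF (edgeR adjusted p = 0.0019) and did not pass in MvI (edgeR adjusted p = 0.727). The male isoform, RB, rose in both comparisons, with a log2 fold change of 2.39 ± 0.28 (SE, adjusted p = 0.00174) in IvF and 1.26 ± 0.27 (adjusted p = 0.0214) in MvI, and that of RA was -0.19 ± 0.30 and 0.83 ± 0.31, neither passing.

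AGAP001570, annotated to microtubule binding and cell projection organization, had the second largest control difference. Its female isoform, RB, held 76.9%, 82.3% and 57.1% in the dsxF+/+ XX libraries, 52.5%, 41.3% and 46.8% in the dsxF-/- XX libraries, and 9.34%, 6.86% and 8.05% in the dsxF+/+ XY libraries. Here the dsxF-/- XX libraries overlapped neither control, and the main isoform differed among them. Usage changed in MvI (edgeR adjusted p = 0.00287, passing under all 17 alternative settings) and not in IvF (edgeR adjusted p = 0.0904). The male isoform, RA, rose in both steps, by a log2 fold change of 2.26 ± 0.36 in IvF (adjusted p = 0.006) and 1.76 ± 0.35 in MvI (adjusted p = 0.0158). RB fell by 1.67 ± 0.43 on the log2 scale in MvI (adjusted p = 0.0458), and its change in IvF, 0.54 ± 0.41, did not pass (adjusted p = 0.46).

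AGAP011462, annotated to the cytoskeleton and to cell projections, changed in both comparisons. Its female isoform, RB, held 62.3%, 68.2% and 67.7% in control females, 20.5%, 14.1% and 17.6% in dsxF-/- XX, and 2.88%, 7.85% and 2.94% in control males. The 3 groups did not overlap, and dsxF-/- XX lay nearer to dsxF+/+ XY. The usage test gave edgeR adjusted p = 0.00036 in IvF and 0.00216 in MvI and passed under all 17 alternatives in each. AGAP002272, annotated to cell junctions and the cytoskeleton, varied most among the control females of the 5. Its female isoform, RB, held 87.4%, 72.5% and 58.0% in the dsxF+/+ XX libraries, 22.7%, 15.5% and 13.2% in the dsxF-/- XX libraries, and 8.86%, 5.24% and 14.8% in the dsxF+/+ XY libraries. The dsxF+/+ XX libraries were spread over almost 30 points, yet every one stood above every dsxF-/- XX library. Usage passed in IvF by a small margin (edgeR adjusted p = 0.0456), and the call was lost without any 1 of 8 of the libraries (adjusted p from 0.0561 to 0.214), dsxF+/+ XX replicate 1 being the exception, and under 5 of the 8 other settings. AGAP000651, annotated to the cytoskeleton, the cell cycle and ATP binding, kept the female isoform on top in every dsxF-/- XX library, with a share of 65.7% ± 0.67 in control females, 56.0% ± 0.80 in dsxF-/- XX and 47.1% ± 2.0 in control males (SD, n = 3 each). Its groups did not overlap, and it was the member with the tightest spread in dsxF+/+ XX, but it did not pass the usage test in either comparison (edgeR adjusted p = 0.18 and 0.397).

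**Figure D3:**
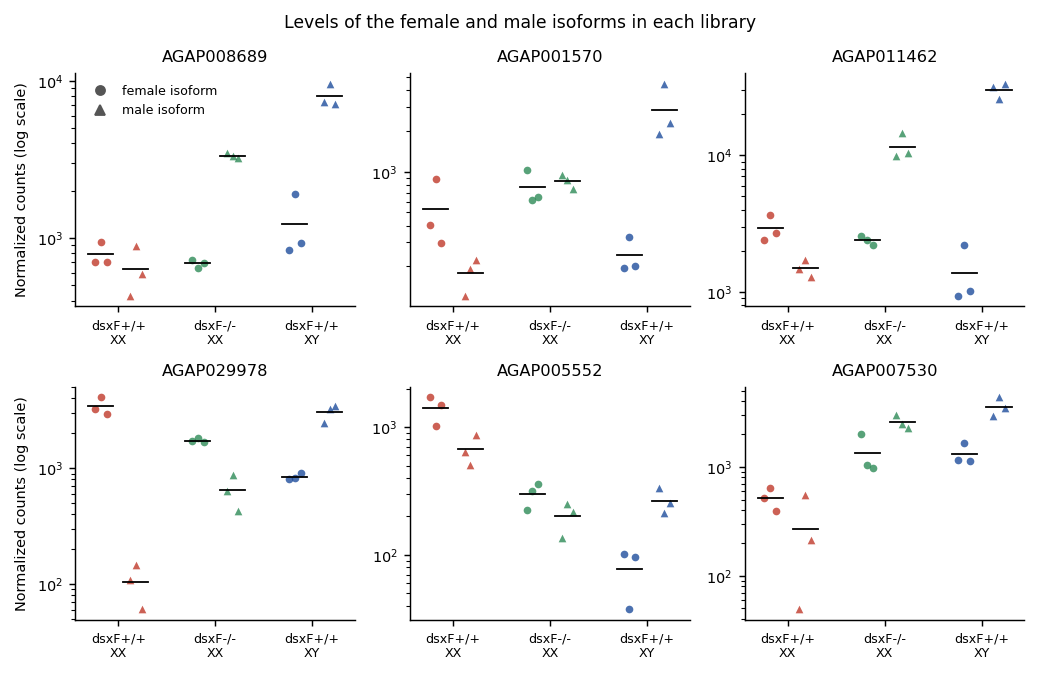
Normalized counts (y axis, log scale, differing between panels) of the female isoform (circles) and the male isoform (triangles) of 6 members in each library, with group means as lines. In AGAP008689 and AGAP011462 the male isoform climbs from group to group while the female isoform is similar in both XX groups. AGAP029978 shows opposite movements, AGAP005552 a fall of both isoforms in dsxF-/- XX, and AGAP007530 a rise of both.

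A further 4 members are annotated to kinase activity or to ATP binding or hydrolysis. The male isoform led in every dsxF-/- XX library for all 4, usage changed in IvF for 3, and it changed in MvI for 1. Like all annotated members, these 4 came from tables built on the same libraries. In AGAP007587, annotated as a protein serine/threonine kinase, the female isoform RA held 58.8%, 74.5% and 71.2% in control females, 31.1%, 33.4% and 33.5% in dsxF-/- XX, and 21.4%, 20.1% and 18.8% in control males. The 3 groups did not overlap. Usage changed in IvF (edgeR adjusted p = 0.00314) and not in MvI (edgeR adjusted p = 0.212), and of the isoforms only the male one, RB, passed, with a log2 fold change of 1.67 ± 0.21 in IvF (adjusted p = 0.00204).

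AGAP002858, annotated to ATP hydrolysis, had 5 transcripts. Its female isoform, RE, held 43.0%, 38.7% and 39.5% in the dsxF+/+ XX libraries, 21.3%, 22.7% and 17.5% in the dsxF-/- XX libraries, and 8.31%, 9.83% and 10.96% in the dsxF+/+ XY libraries. Its male isoform, RA, overlapped between dsxF-/- XX (44.9%, 46.1% and 47.3%) and dsxF+/+ XY (45.6%, 50.1% and 46.7%). Usage thus changed in both steps (edgeR adjusted p = 0.00301 in IvF and 0.0127 in MvI), but the gain of RA lay in the IvF step, where its log2 fold change was 0.98 ± 0.23 (adjusted p = 0.0297), and the called fall of RE in the MvI step, by 0.97 ± 0.23 on the log2 scale (adjusted p = 0.0305). The IvF call was lost without dsxF-/- XX replicate 3 (adjusted p = 0.0517), and the MvI call without any 1 of the dsxF-/- XX libraries or of dsxF+/+ XY replicates 1 and 3 (adjusted p from 0.0518 to 0.111).

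AGAP029104, annotated to ATP binding and phosphate transfer, had one of the 3 smallest control differences, at 14.5 points. Its female isoform, RC, held 51.4%, 48.4% and 51.7% in control females, 41.0%, 32.03% and 38.4% in dsxF-/- XX, and 32.7%, 41.4% and 33.8% in control males, so that both other groups lay below dsxF+/+ XX and overlapped each other. Usage changed in IvF (edgeR adjusted p = 0.00127), with the male isoform RB higher by a log2 fold change of 1.57 ± 0.23 (adjusted p = 0.00379). The kinase-annotated AGAP007957 had a female-isoform share of 65.1% ± 7.0 in the dsxF+/+ XX libraries, 39.5% ± 6.6 in the dsxF-/- XX libraries and 24.6% ± 5.0 in the dsxF+/+ XY libraries (SD, n = 3 each). It did not pass the usage test in either comparison (edgeR adjusted p = 0.164 and 0.492).

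The remaining 5 annotated members carry broader terms. AGAP000045, annotated to cell junctions, cell projections and signal transduction, had a female-isoform (RA) share of 71.9%, 70.9% and 66.2% in control females, 30.1%, 21.2% and 25.7% in dsxF-/- XX, and 23.1%, 29.0% and 22.95% in control males. The dsxF-/- XX mean stood at 0.98 of the way to dsxF+/+ XY, with overlapping libraries. Usage changed in IvF (edgeR adjusted p = 0.00223, passing under all 17 alternatives) and did not pass in MvI. AGAP002364, annotated to organelle organization, went from 64.5% ± 6.3 in dsxF+/+ XX to 36.7% ± 1.5 in dsxF-/- XX and 31.8% ± 1.4 in dsxF+/+ XY (SD, n = 3 each), and usage changed in IvF (edgeR adjusted p = 0.00371). It was one of only 2 members whose isoforms moved in opposite directions in IvF with both passing: RA fell by 0.86 ± 0.24 on the log2 scale (adjusted p = 0.0474) and RB rose by 0.83 ± 0.17 (adjusted p = 0.0172).

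AGAP001713, known from its GO term only as a membrane component, kept its female isoform RB on top in dsxF-/- XX, with 42.8%, 52.8% and 41.5% between the 72.3%, 65.4% and 70.3% of dsxF+/+ XX and the 39.8%, 22.6% and 29.4% of dsxF+/+ XY. The 3 groups did not overlap. It passed in both comparisons (edgeR adjusted p = 0.0154 and 0.0201). The first call was lost without dsxF+/+ XX replicate 1 or 3 or dsxF-/- XX replicate 1 or 3 (adjusted p from 0.073 to 0.117), and the second without dsxF-/- XX or dsxF+/+ XY replicate 2 or 3 (adjusted p from 0.0527 to 0.247). In AGAP007530, annotated to metal ion binding, the female isoform held 91.3%, 54.0% and 64.8% in the dsxF+/+ XX libraries, 40.2%, 29.7% and 30.1% in the dsxF-/- XX libraries, and 28.2%, 27.5% and 24.7% in the dsxF+/+ XY libraries. One dsxF+/+ XX library stood well above the other two. AGAP007494, annotated to regulation of cellular component organization, went from 68.7% ± 5.8 to 53.2% ± 6.3 and 45.8% ± 2.3 (SD, n = 3 each). Neither of these 2 genes passed the usage test in IvF or MvI (edgeR adjusted p from 0.149 to 0.989), although both passed in IvF without dsxF+/+ XX replicate 2 (adjusted p = 0.0225 and 0.0273).

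The other 30 members had no annotation in the sources used here. Among them was the member with the largest control difference, AGAP029978. Its female isoform, R815, held 92.7%, 90.8% and 89.8% in control females, 64.8%, 58.8% and 71.5% in dsxF-/- XX, and 23.8%, 19.5% and 20.1% in control males. The groups stood apart, with dsxF-/- XX at 0.37 of the way to dsxF+/+ XY and the female isoform still on top in each of its libraries. Usage changed in IvF (edgeR adjusted p = 8.38e-06) and in MvI (edgeR adjusted p = 2.83e-05), under all 17 alternatives in each. Its isoforms moved in opposite directions in both steps. R815 fell by 0.98 ± 0.18 in IvF and by 1.04 ± 0.18 in MvI on the log2 scale (adjusted p = 0.0111 and 0.00923), and the male isoform R817 rose by 2.61 ± 0.37 and 2.24 ± 0.35 (adjusted p = 0.00339 and 0.00634).

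In AGAP005635 and AGAP004235 the dsxF-/- XX libraries had moved most of the way to dsxF+/+ XY. The female isoform of AGAP005635 held 68.9%, 56.4% and 69.3% in the dsxF+/+ XX libraries, 24.4%, 25.8% and 19.2% in the dsxF-/- XX libraries, and 13.7%, 4.13% and 4.57% in the dsxF+/+ XY libraries. That of AGAP004235 held 78.7%, 74.3% and 76.1%, then 34.4%, 41.4% and 34.6%, then 20.4%, 17.3% and 22.9%. In neither gene did any group overlap another. Usage changed in IvF for both (edgeR adjusted p = 0.0056 and 0.000633). In MvI it changed for AGAP005635 (edgeR adjusted p = 0.0135), a call lost without dsxF-/- XX replicate 1 or 2 or dsxF+/+ XY replicate 2 or 3 (adjusted p from 0.0515 to 0.115), and not for AGAP004235 (edgeR adjusted p = 0.0547). In IvF the female isoform of AGAP005635 fell by 2.23 ± 0.38 on the log2 scale (adjusted p = 0.00774) and that of AGAP004235 fell by 1.81 ± 0.27 (adjusted p = 0.00454), and in both the change of the male isoform did not pass.

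In AGAP029512 the share of the female isoform also fell, from a lower start. Its female isoform held 51.8%, 52.1% and 57.6% in control females, 27.8%, 23.3% and 24.0% in dsxF-/- XX, and 14.1%, 3.84% and 5.97% in control males, with no overlap. Usage passed in IvF (edgeR adjusted p = 0.0361), but the call was lost without any 1 of the 6 XX libraries (adjusted p from 0.0526 to 0.182). The summed level of AGAP029512 was also called lower in IvF, with a log2 fold change of -1.49 ± 0.31 (edgeR adjusted p = 0.012). That of AGAP005635 and of AGAP004235 was not called. The male isoform of AGAP029512 changed by -0.98 ± 0.39 on the log2 scale in IvF, which did not pass (edgeR adjusted p = 0.143). In AGAP006660 the female isoform held 80.9%, 77.0% and 84.3% in the dsxF+/+ XX libraries, 54.4%, 36.5% and 60.5% in the dsxF-/- XX libraries, and 19.9%, 18.9% and 23.7% in the dsxF+/+ XY libraries. The groups did not overlap, yet usage did not pass in either comparison (edgeR adjusted p = 0.352 and 0.516), and 3 of the 17 alternatives passed in IvF and 2 in MvI (adjusted p over the alternatives from 0.00335 to 0.838 and from 0.00991 to 1). Both comparisons passed when transcripts under 10 counts in any library were dropped and when only the groups compared were fitted, and IvF also passed with limma-voom.

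In AGAP005552 and AGAP008059 the dsxF-/- XX libraries kept the female isoform. That of AGAP005552 held 72.8%, 67.1% and 63.2% in control females, 62.1%, 55.9% and 61.9% in dsxF-/- XX, and 23.3%, 15.2% and 27.5% in control males. That of AGAP008059 held 67.6%, 69.2% and 66.6%, then 67.8%, 66.7% and 76.7%, then 41.1%, 18.9% and 37.5%. In both, all dsxF-/- XX libraries stood far above dsxF+/+ XY. AGAP008059 had only 141, 97.3 and 144 summed counts in the dsxF+/+ XY libraries, so its shares there are imprecise. Usage changed in MvI (edgeR adjusted p = 0.0189 and 0.0344) and did not pass in IvF (edgeR adjusted p = 0.704 and 0.976). The first MvI call was lost without dsxF-/- XX replicate 2 or 3 (adjusted p = 0.0502 and 0.0746), the second without any 1 of 6 libraries (adjusted p from 0.0548 to 0.128). AGAP029289, whose female isoform held 72.1% ± 2.4 in the dsxF+/+ XX libraries, 52.4% ± 11.3 in the dsxF-/- XX libraries and 18.4% ± 8.2 in the dsxF+/+ XY libraries (SD, n = 3 each), also passed in MvI only (edgeR adjusted p = 0.0338), a call lost without any 1 of 6 libraries (adjusted p from 0.0602 to 0.13). For AGAP008059 the 6 were dsxF+/+ XX replicates 1 and 3, dsxF-/- XX replicates 1 and 3 and dsxF+/+ XY replicates 2 and 3, and for AGAP029289 they were dsxF+/+ XX replicate 3, dsxF-/- XX replicates 2 and 3 and all dsxF+/+ XY libraries.

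A changed share can come from a lower female isoform, a higher male isoform or both, and the level of each transcript was therefore tested on its own. All 88 main isoforms could be tested. In IvF the female isoform was lower in 14 members and higher in 1, and the male isoform was higher in 13 and lower in 2, while 4.18% of all transcripts tested were higher and 6.87% lower. Only in AGAP029978 and AGAP002364 did both isoforms pass the test in opposite directions. In 10 members only the male isoform passed, being higher, among them AGAP008689, AGAP001570, AGAP011462 and AGAP000045. In another 10 only the female isoform passed, being lower, among them AGAP005635, AGAP004235 and AGAP001713. An isoform that did not pass cannot be read as unchanged. The median log2 fold change over the 44 members was -0.71 for female isoforms and 0.64 for male isoforms, against -0.0020 over all transcripts. The dsxF+/+ XX libraries helped choose the isoforms, which favours a lower female and a higher male isoform here. The values over all transcripts were not chosen in this way, so they are no like baseline. The 14 isoforms that were higher in IvF became 8 without dsxF+/+ XX replicate 3 or dsxF-/- XX replicate 1, and the 16 that were lower became 10 without dsxF-/- XX replicate 1.

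In MvI the female isoform was lower in 9 members and the male isoform higher in 4 (AGAP029978, AGAP001570, AGAP011462 and AGAP008689), against 1.30% of all transcripts higher and 6.09% lower. The median log2 fold changes were -0.38 and 0.43. Here the dsxF+/+ XY libraries helped choose the isoforms, which favours the same directions. Without dsxF-/- XX replicate 2 or 3 the count of 4 became 2, and the count of 9 became 4 without dsxF-/- XX replicate 1 or 2 or dsxF+/+ XY replicate 3.

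**Figure D4:**
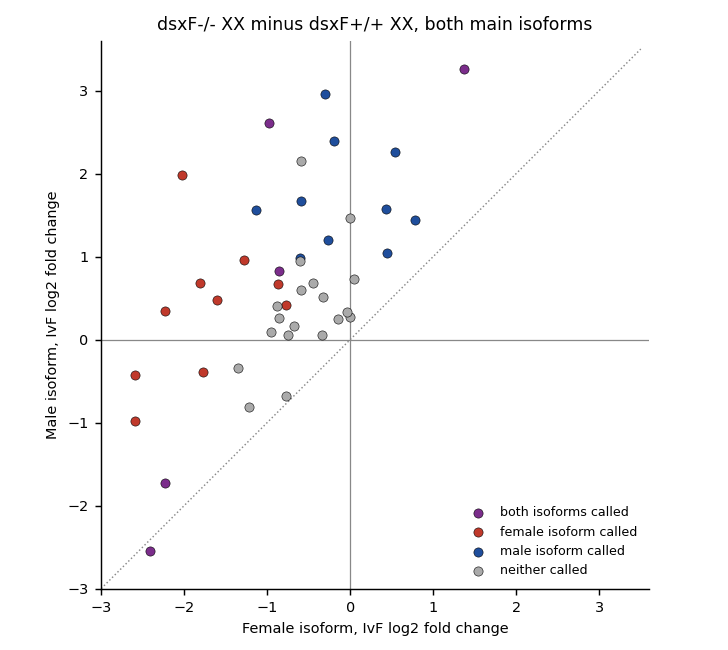
Log2 fold change of the male isoform (y axis) against that of the female isoform (x axis) in dsxF-/- XX minus dsxF+/+ XX, 1 point per member, coloured by which isoform passed the edgeR test, with equal change on the dotted line. Most points lie above the line, which the choice of members favours. Of the members with a called isoform, 10 have only the male isoform called, higher (blue), and 10 only the female isoform, lower (red). In 5 both are called (purple).

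Isoform share and gene level were compared for each member by summing its transcripts. Between the controls, described here without a test, the mean dsxF+/+ XY to dsxF+/+ XX ratio of summed CPM (counts scaled to a common library total) ranged from 0.0944 to 7.08 with a median of 0.985, and 30 members lay between 0.5 and 2. In IvF the summed level was higher in 6 members and lower in 8, against 5.05% and 9.40% of all genes tested. Of the 19 members whose usage changed in IvF, 13 had no called change of the summed level. In MvI 2 members were higher and 2 lower, against 1.57% and 7.66% of all genes, and 7 of the 9 with changed usage had no called change of the summed level. A summed level that was not called cannot be read as unchanged, in either comparison.

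The dynein chain AGAP008689 and the cytoskeletal AGAP011462 were higher in both steps. AGAP011462 had 246, 337 and 218 CPM in control females, 786, 1099 and 841 in dsxF-/- XX, and 1981, 1562 and 2135 in control males. AGAP008689 had 72.4, 115 and 70.7 CPM, then 265, 259 and 262, then 500.3, 642 and 500.4. The 3 groups of either gene did not overlap. The log2 fold change of the summed level was 1.65 ± 0.23 in IvF and 1.19 ± 0.23 in MvI for AGAP011462 (edgeR adjusted p = 0.00181 and 0.00856) and 1.49 ± 0.25 and 1.21 ± 0.24 for AGAP008689 (edgeR adjusted p = 0.00417 and 0.0114). AGAP007530, AGAP005617, AGAP000651 and AGAP029104 were the others that were higher in IvF, with the largest change in AGAP007530 at 2.31 ± 0.34 (edgeR adjusted p = 0.00242), from 36.3, 74.6 and 33.2 CPM in dsxF+/+ XX to 317, 230.2 and 218 in dsxF-/- XX.

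AGAP008059 and AGAP005552, which kept the female isoform in dsxF-/- XX, had the 2 largest falls in summed level. AGAP008059 had 96.4, 67.1 and 85.7 CPM in the dsxF+/+ XX libraries, 13.6, 22.5 and 13.2 in the dsxF-/- XX libraries, and 9.07, 6.62 and 7.83 in the dsxF+/+ XY libraries. AGAP005552 had 149.9, 95.8 and 128 CPM, then 22.6, 37.2 and 38.5, then 26.5, 14.0 and 21.7. The summed level of both was thus already low in dsxF-/- XX, where the isoform share still overlapped or lay close to that of dsxF+/+ XX. In IvF that of AGAP008059 fell by 2.45 ± 0.26 on the log2 scale (edgeR adjusted p = 0.000622) and that of AGAP005552 fell by 2.05 ± 0.28 (edgeR adjusted p = 0.00164), with both isoforms lower in each. In MvI AGAP008059 fell further, by 0.94 ± 0.25 (edgeR adjusted p = 0.0431), as did AGAP000095, by 0.65 ± 0.17 (edgeR adjusted p = 0.0379). These 2 MvI calls became 0 without dsxF+/+ XX replicate 3, dsxF-/- XX replicate 1 or 2, or any 1 of the dsxF+/+ XY libraries, and 1 without dsxF-/- XX replicate 3. The 2 that were higher in MvI became 1 without dsxF-/- XX replicate 2. In IvF the 6 higher became 3 without dsxF+/+ XX replicate 3, and the 8 lower became 5 without dsxF-/- XX replicate 1 or 3.

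**Figure D5:**
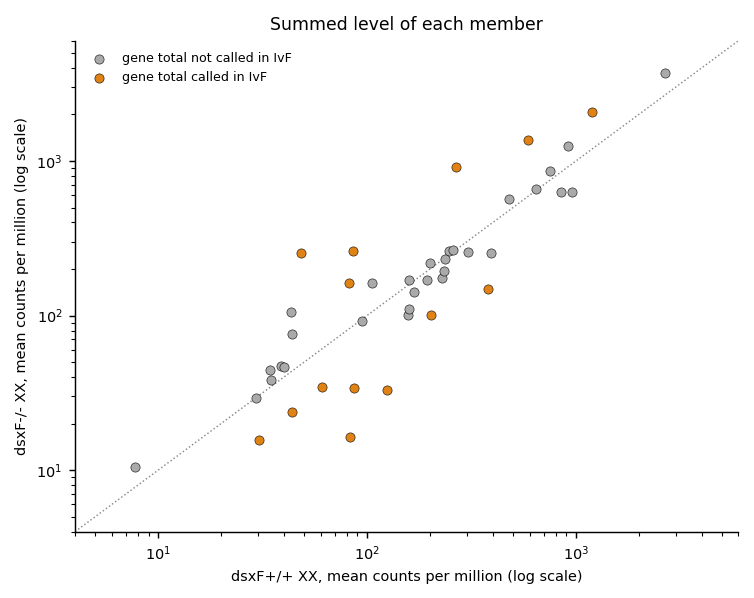
Summed level of each member in dsxF-/- XX (y axis) against dsxF+/+ XX (x axis), as group means in CPM of 3 libraries each on log scales, with equality on the dotted line. The 14 members whose summed level passed the edgeR test in dsxF-/- XX minus dsxF+/+ XX are orange, 6 above and 8 below the line, and most members lie near it.

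At the edge of the rule, AGAP000577 had the smallest control difference, 10.04 points. Its female isoform, RC, held 55.2%, 49.4% and 49.3% in control females, 50.6%, 56.1% and 53.6% in dsxF-/- XX, and 42.4%, 40.1% and 41.4% in control males. The XX groups overlapped. Usage nevertheless passed in IvF (edgeR adjusted p = 0.00606). The XX groups did not overlap in the male isoform RD, at 35.6%, 36.2% and 22.7% in dsxF+/+ XX against 42.5%, 39.3% and 41.8%, nor in RB, at 7.26%, 9.82% and 25.6% against 4.92%, 2.69% and 3.13%. The call was lost without dsxF+/+ XX replicate 3, the library with the 25.6%, or without dsxF-/- XX replicate 2 or 3 (adjusted p from 0.0693 to 0.119). The next smallest difference was that of AGAP007565, at 14.0 points, with 54.5% ± 1.8 in the dsxF+/+ XX libraries, 47.7% ± 0.54 in the dsxF-/- XX libraries and 40.5% ± 1.9 in the dsxF+/+ XY libraries (SD, n = 3 each). Its groups did not overlap, and neither comparison passed (edgeR adjusted p = 0.479 and 0.558).

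Just outside the rule were 96 genes that missed it by 1 library. The largest difference among them was in AGAP005563, in which the female isoform was still ahead in dsxF+/+ XY replicate 1 (53.9%, against 31.3% and 40.0% in the other two). In AGAP004050 the female isoform held 57.03%, 64.4% and 49.1% in control females, just losing the lead in replicate 3, 30.1%, 25.4% and 22.2% in dsxF-/- XX, and 4.38%, 8.81% and 6.23% in control males. AGAP000153 missed through dsxF+/+ XY replicate 3, in which all its counts were assigned to the female isoform.

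The same rule was applied between dsxF-/- XX and each control. It found 31 genes, 2.42% of those scored, whose main isoform differed between dsxF-/- XX and dsxF+/+ XX, and 17 genes, 1.33%, between dsxF+/+ XY and dsxF-/- XX, compared with the 44 between the controls. By construction the 31 include the 22 members with the male isoform in every dsxF-/- XX library. The 17 likewise include the 9 with the female isoform in every one.

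Of the genes listed by the study, most could not be scored for a change of main isoform, and the members among those scored are given here beside the 3.43% of all scored genes that were members. Of the 78 genes it singled out 7 could be scored and 1, AGAP008689, was a member. Of 67 genes under its cilium and cell projection GO terms 8 could be scored and 3 were members (AGAP000045, AGAP001570 and AGAP008689), while 3 kept the same main isoform in all 6 control libraries. AGAP011462 is not in that list, since its cell projection term stood in another table of the study. Among its 38 listed dynein genes, motor subunits that move along microtubules, 5 could be scored, AGAP008689 was the 1 member and 2 kept the same main isoform. Among its 110 genes listed for tubulin, the building block of microtubules, 17 could be scored, AGAP001570 was the 1 member and 10 kept the same main isoform. In IvF usage changed in 4 of the 13 singled-out genes tested, 3 of 8 under the GO terms, 1 of 5 dynein genes and 3 of 18 tubulin genes. This compares with 7.31% of all genes tested. In MvI it changed in 1 of the 13, 1 of the 8, 0 of the 5 and 2 of the 18, against 4.87%. Some of these calls are members: the dynein call in IvF was AGAP008689, and the call under the GO terms in MvI was AGAP001570. Without the members the IvF calls were 3 of 12 singled-out genes, 1 of 5 under the GO terms, 0 of 4 dynein genes and 3 of 17 tubulin genes. The MvI calls were then 1 of 12, 0 of 5, 0 of 4 and 1 of 17. These tests also covered the genes that the rule left out by name. The study chose these lists on the same libraries, so they are no independent evidence.

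The summed counts of a member ranged from 93.4 to 63203 in a library, and the exact (Clopper-Pearson) 95% binomial interval of a main isoform's share was 3.49 points wide at the median and 21.0 points at most, in AGAP008409, where the female isoform held 56.0% (45.2% to 66.2%) in dsxF+/+ XX replicate 3. These intervals cover counting error only and not the error of dividing reads between isoforms. The male isoforms of AGAP006366 and AGAP007730 were given almost no counts in dsxF+/+ XX replicate 1 (0.00117%) and replicate 3 (4.79e-08%), but 12.9% and 10.3%, and 20.7% and 19.8%, in the other dsxF+/+ XX libraries.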

How the data were processed

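For each sample the deposited table gave estimated counts per transcript, which the authors had made with kallisto (version not given in the sources used here) against AgamP4.12 transcripts from SMART-Seq v4 libraries. kallisto divides reads that fit several isoforms between them by a model, no measure of that error was used here, and shares were not corrected for transcript length because no table used here gave lengths, names or sequences for these identifiers. Columns were matched to samples by their names, and 0 columns were left unused. Shares were each transcript's estimated counts over the gene's sum. Estimated counts were rounded to whole numbers for the tests and scaled by TMM. Transcripts were kept by filterByExpr (12379 transcripts, 10479 gene sums). Usage was tested with diffSpliceDGE and levels with glmQLFTest in edgeR 4.0.16 (R 4.3.3), in 1 fit of all 9 libraries with group as the only term, and p-values were Benjamini-Hochberg adjusted over everything tested. limma 3.58.1 and DESeq2 1.42.0 served as alternatives, and the code was tested on simulated data. The SE of a log2 fold change was derived from glmQLFTest, as its absolute value divided by the square root of the F statistic. The common biological coefficient of variation was 36.0%. Normalized counts are counts after TMM scaling to the mean library size. Per the study there were 3 biological repeats per group.

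The members, lists and tests were chosen with earlier results of these data known. Named with values are the 12 members with the largest control difference, those annotated in the study's tables, those called in both comparisons, the 3 with the smallest difference and 3 genes just outside the rule. AGAP007530, AGAP007494, AGAP000095, AGAP005617, AGAP008059, AGAP003509 and members at the extremes of a range were added after their values were seen. Fixed lists of splicing regulators and cell type markers could not be used, since no identifier was matched to a name, so the tissue label was not checked against markers.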

Additional observations from a re-analysis of the deposited data

How the results depend on the processing

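Of the members' usage tests recomputed under the alternatives, 1374 stayed on the same side of the threshold, 107 calls were lost and 15 gained. The first count includes tests of members that the main fit did not call. Of the 19 usage calls in IvF, 5 were kept under every alternative and 10 whichever library was left out. Of the 9 in MvI, 3 were kept under every alternative and 3 whichever library was left out. A required lead of 10 points left 20 members, 11 with the male and 5 with the female isoform in every dsxF-/- XX library. Leaving out 1 library gave 44 to 80 members, 23 to 44 with the male isoform and 9 to 17 with the female isoform, 11 to 18 usage calls in IvF and 4 to 11 in MvI. For main isoforms it gave 8 to 16 higher and 10 to 19 lower in IvF, and 2 to 5 higher and 4 to 10 lower in MvI. For summed levels it gave 3 to 7 higher and 5 to 11 lower in IvF, and 1 to 2 higher and 0 to 2 lower in MvI. Simes' method, which combines transcript p-values, called 6 in IvF and 5 in MvI. DESeq2 called 29 lower isoforms in IvF, 7 higher and 14 lower in MvI, and 4 higher summed levels in MvI. The 2 lower summed levels in MvI became 1 with no filter, with limma-voom or with only the groups compared. The cause of these differences was not tested. The 9 libraries' replicate numbers did not pair them (correlations of same-numbered deviations from -0.28 to 0.09 in IvF and from -0.19 to 0.02 in MvI). The libraries were also grouped by stretches of the S numbers that end the column names, taken here as sample-sheet numbers. No label calls these stretches batches or sequencing runs. Such runs of sample-sheet numbers gave -0.28 to 0.09 and -0.15 to 0.22. Between the 2 control groups, which were not compared by a test, replicate numbers gave -0.02 to 0.45 and runs 0.21 to 0.45. With the replicate block, usage was called in 16 members in IvF and 6 in MvI, and the summed levels lower in MvI were 0, as they were when the block was the run of sample-sheet numbers. Either block ended the usage calls of AGAP002272, AGAP029512 and AGAP029654 in IvF and of AGAP029289, AGAP001713 and AGAP008059 in MvI. Shares per base of transcript were not run. Depth limits the least abundant members: under 100 counts a share is known to about 21.0 points, and with 3 libraries per group a usage change that missed the threshold cannot be read as absent.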

Other observations

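In 3 genes outside the rule, dsxF-/- XX had a main isoform of its own, with 1 transcript largest in all 6 control libraries and another in all 3 dsxF-/- XX libraries. They were found by looking for this pattern, so it is a description with no test. In AGAP004179 the control isoform RC held 53.0%, 61.0% and 63.4% in dsxF+/+ XX and 69.1%, 60.5% and 69.7% in dsxF+/+ XY, but 36.3%, 41.8% and 35.4% in dsxF-/- XX, where RA took 63.7%, 57.9% and 64.2%. In AGAP013511 the control isoform RB held 63.8%, 67.8% and 53.2%, then 61.4%, 60.8% and 62.4%, and in dsxF-/- XX 33.6%, 34.1% and 34.7%. In AGAP029403 the control isoform R417 held 74.1%, 52.9% and 59.1%, then 56.1%, 51.0% and 47.9%, and in dsxF-/- XX 18.5%, 12.2% and 27.3%. The dsxF-/- XX libraries lay outside the range of both controls in all 3 genes, with at least 490.0 summed counts in every library.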
